A study of Mus musculus with 2 samples.

Results

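The genes described here were 10 of the calcium/calmodulin-dependent (CaM) protein kinase system, chosen by symbol: the CaMKII subunit genes Camk2a, Camk2b, Camk2g and Camk2d, the CaMKII inhibitor genes Camk2n1 and Camk2n2, the pseudokinase gene Camkv, the CaMKIV gene Camk4, and the upstream kinase genes Camkk1 and Camkk2. All 10 were found among 55536 annotated genes, and they held 92 of the 141767 annotated transcripts. They were measured by total RNA-seq of hippocampus from female adult B6CASTF1/J mice, offspring of a C57BL/6J by CAST/EiJ cross, aged 8 to 10 months, with no treatment named in the labels. There were 2 libraries, made from 300 ng of RNA each with ERCC spike-ins, synthetic RNAs added in known amounts. The labels call them biological replicate 2, from animal 5, and biological replicate 1, from animal 1, but give both the same donor identifier. They were read as separate animals of 1 group on the animal numbers. If that reading is wrong, the spread below is technical. The labelled tissue is a layer of hippocampus, and neither the layer nor the dissection is given.

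CaMKII is a holoenzyme of many subunits that is opened by calcium-loaded calmodulin and then phosphorylates itself, which keeps it active after the calcium signal has passed. In excitatory neurons of the forebrain, the alpha and beta subunits are a main component of the postsynaptic density and take part in long-term potentiation. CaMKIV is a mainly nuclear kinase of the same superfamily, and it is switched on by the CaM kinase kinases. The CaMKII inhibitor proteins bind the active kinase and block its catalytic site.

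Depth on annotated genes was 28356913 expected counts in replicate 2, against 34147402 in replicate 1, and the spike-in share of counts was 0.212% in replicate 2, against 0.178% in replicate 1. The label was checked against marker lists. All 4 markers of excitatory neurons and all 4 of hippocampal subfields were detected, where detected means a TPM of at least 1 in both libraries. TPM is a relative level in which counts are divided by transcript length and scaled to the same total in each library. The summed level of the excitatory markers was 787 TPM in replicate 2, against 766 TPM in replicate 1. That of 3 markers of inhibitory neurons was 248 TPM in replicate 2, against 270.3 TPM in replicate 1. Markers of astrocytes, oligodendrocytes, microglia and endothelial cells, 12 genes in all, were detected too, so the tissue was mixed. The subfield markers summed to 240 TPM in replicate 2, against 193 TPM in replicate 1. Of these, Wfs1 (127 TPM in replicate 2, 85.5 TPM in replicate 1) and Bok were higher in replicate 2. Prox1 and Rgs14 were slightly lower. The libraries stood furthest apart in 2 other lists. The 4 choroid plexus markers summed to 626 TPM in replicate 2 and 24.0 TPM in replicate 1, with 0 of the 4 listed at 0. Nearly all of that was Ttr, with 615 TPM in replicate 2 and 21.75 TPM in replicate 1. Only 2 of the 4 were detected by the rule above. The 5 immediate early genes, which follow neuronal activity, summed to 75.1 TPM in replicate 2 and 193 TPM in replicate 1.

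To place the 10 genes on 1 scale, their TPM was read in each library. All 10 were detected. Camk2a led by a wide margin, followed by Camk2b, Camkv, Camk2n1, Camk2g, Camkk1, Camkk2, Camk2n2, Camk4 and Camk2d. Of the 9 gaps between neighbours in that order, 7 exceeded the SD of both genes and had the same sign in both libraries. The gaps between Camkk2 and Camk2n2 and between Camk4 and Camk2d did not. The place of Camk2g rested on which transcripts were summed. With complete protein-coding transcripts only, a setting added after the data were seen, Camk2g had 64.9 TPM in replicate 2 and 58.3 TPM in replicate 1, below Camkk1 with 68.4 TPM in replicate 2 and 68.9 TPM in replicate 1. In bulk tissue, a lower level of a gene can come from fewer cells that express it or from less RNA per cell, and these cannot be told apart.

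**Figure D1:**
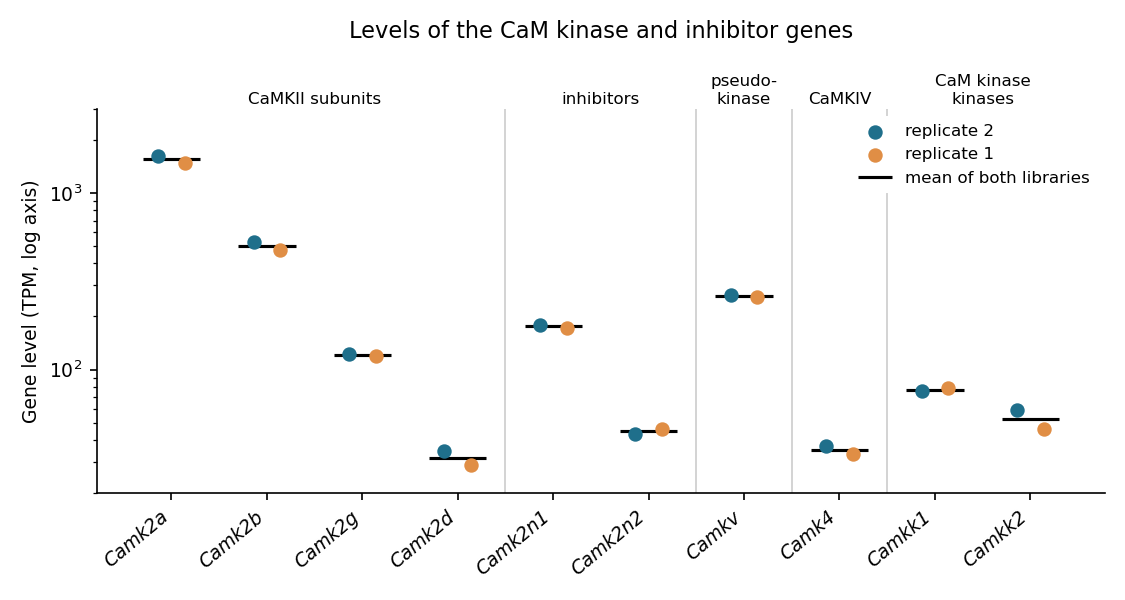
Gene level in TPM (log axis) of the 10 genes, ordered by role, with replicate 2 on the left and replicate 1 on the right of each pair and a bar at their mean. The genes span from 1559 TPM for Camk2a to 31.4 TPM for Camk2d, and the 2 libraries lie close together beside that range.

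Camk2a encodes the alpha subunit, the predominant CaMKII subunit of forebrain excitatory neurons (ENSMUSG00000024617.16, chromosome 18, 60925618 to 60988152, mm10, plus strand). Its level was 1633 TPM in replicate 2 and 1486 TPM in replicate 1, a mean of 1559 ± 104 TPM (SD, n = 2), and it was number 2 of 22015 nuclear protein-coding genes in both libraries. By the distance in log2(TPM + 1) over the 2 libraries, the 3 nuclear protein-coding genes nearest to Camk2a in level were Actb, Fth1 and Gapdh, which encode beta-actin, the ferritin heavy chain and a glycolytic enzyme.

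Camk2b encodes the beta subunit, which binds F-actin in addition to its kinase activity (ENSMUSG00000057897.14, chromosome 11, 5969644 to 6066362, minus strand). It had 526 TPM in replicate 2 and 476 TPM in replicate 1, a mean of 501 ± 35.7 TPM (SD, n = 2). Camk2g, the gamma subunit gene (ENSMUSG00000021820.18, chromosome 14, 20734875 to 20794088, minus strand), had 122 TPM in replicate 2 and 119.6 TPM in replicate 1. The delta subunit gene Camk2d, which also encodes the main CaMKII of the heart (ENSMUSG00000053819.16, chromosome 3, 126596302 to 126846326, plus strand), was the lowest of the 10, with 34.3 TPM in replicate 2 and 28.6 TPM in replicate 1.

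The balance of the subunits was nearly the same in the 2 libraries. The ratio of Camk2a to Camk2b was 3.10 in replicate 2 and 3.12 in replicate 1, a mean of 3.11 ± 0.015 (SD, n = 2). Camk2a held 70.5% of the summed subunit TPM in replicate 2 and 70.4% in replicate 1. Camk2b held 22.7% in replicate 2, against 22.6% in replicate 1. Camk2g held 5.26% in replicate 2, against 5.67% in replicate 1, and Camk2d held 1.48% in replicate 2, against 1.36% in replicate 1. The subunits summed to 2315 TPM in replicate 2 and 2110 TPM in replicate 1. A second quantification of the same libraries, with the layout of kallisto and called the second transcript table here, gave Camk2a to Camk2b ratios of 3.06 in replicate 2 and 2.86 in replicate 1. With complete protein-coding transcripts only, an alternative chosen after seeing the data, the ratio was 2.71 in replicate 2 and 2.63 in replicate 1, and the Camk2a share was 69.5% in replicate 2, against 69.2% in replicate 1.

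Calm2 and Calm3 encode calmodulin, the protein that binds and opens the kinase. Calm2 had a mean of 1060 ± 24.5 TPM (SD, n = 2) and Calm3 a mean of 1033 ± 18.7 TPM (SD, n = 2). Among 3 genes of proteins that bind calmodulin, Nrgn, which encodes the postsynaptic protein neurogranin, had 682 TPM in replicate 2 and 577 TPM in replicate 1. Gap43, a growth-cone protein, was the lowest of those 3, with 95.1 TPM in each library.

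The inhibitors were next in role. Camk2n1 (ENSMUSG00000046447.3, chromosome 4, 138454314 to 138460123, plus strand) and Camk2n2 (ENSMUSG00000051146.2, chromosome 16, 20619215 to 20621287, minus strand) have 1 annotated transcript and 2 exons each. Their coding sequences are 234 and 237 bases long without the stop codon, which is 78 and 79 codons. They are shown because both inhibitors were detected and counted separately. Aligned end to end, they share 170 bases, 71.7% of the longer. Capitals mark the bases that are identical in the alignment, and each sequence was read 5′ to 3′ from the GENCODE M21 transcript (mm10). The longest identical run has 23 bases.
Camk2n1, chr4:138455186-138455351 and chr4:138456718-138456785, plus strand: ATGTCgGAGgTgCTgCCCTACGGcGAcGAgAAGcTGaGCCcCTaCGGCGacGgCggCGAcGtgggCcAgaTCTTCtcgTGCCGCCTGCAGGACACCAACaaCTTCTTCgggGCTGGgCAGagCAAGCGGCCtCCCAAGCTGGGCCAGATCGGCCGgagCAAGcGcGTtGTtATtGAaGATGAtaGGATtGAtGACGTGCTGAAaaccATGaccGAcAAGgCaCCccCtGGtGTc
Camk2n2, chr16:20621026-20621194 and chr16:20620176-20620243, minus strand: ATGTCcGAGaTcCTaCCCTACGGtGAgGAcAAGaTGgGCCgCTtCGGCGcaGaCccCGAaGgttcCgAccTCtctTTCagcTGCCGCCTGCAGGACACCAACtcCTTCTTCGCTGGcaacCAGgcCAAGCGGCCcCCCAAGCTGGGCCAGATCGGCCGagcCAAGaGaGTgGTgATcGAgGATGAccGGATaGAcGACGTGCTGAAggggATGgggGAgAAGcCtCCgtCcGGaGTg
The first coding exons share 125 bases, 74.0% of the longer, and the last share 45 of 68 bases, 66.2%. The region that binds CaMKII is known to be closely conserved between the 2 proteins.

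Camk2n1 had 179 TPM in replicate 2 and 173 TPM in replicate 1, from 13727 expected counts in replicate 2 and 15805 in replicate 1. Camk2n2 had 43.1 TPM in replicate 2 and 45.9 TPM in replicate 1, from 904 expected counts in replicate 2 and 1153 in replicate 1. Camk2n1 was thus 4.16 times as high as Camk2n2 in replicate 2 and 3.76 times in replicate 1. The deposited posterior SD of the gene count, which covers the assignment of reads among genes, was 0 for both, so no reads were recorded as shared with another gene. Camk2n2 lies inside the opposite-strand gene Gm49333, which was listed at 0 counts in both libraries. Whether counting used strand is not stated.

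The inhibitors together summed to 222 TPM in replicate 2, against 218 TPM in replicate 1. Set against the 4 CaMKII subunits, that was a ratio of 0.0961 in replicate 2 and 0.104 in replicate 1, a mean of 0.0998 ± 0.00526 (SD, n = 2). With complete protein-coding transcripts only, the ratio was 0.127 in replicate 2 and 0.135 in replicate 1. The nuclear protein-coding genes nearest to Camk2n1 in level, by the same distance, were Arhgef25, Zeb2 and Gaa, an exchange factor of small GTPases, a transcription factor and a lysosomal glucosidase.

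Camkv encodes a vesicle-associated protein that resembles CaM kinases and binds calmodulin but has no known kinase activity (ENSMUSG00000032936.13, chromosome 9, 107935674 to 107949691, plus strand). It had 265 TPM in replicate 2 and 259 TPM in replicate 1, a mean of 262 ± 4.25 TPM (SD, n = 2). That placed it above every active kinase of the 10 genes other than Camk2a and Camk2b. Camk2a was 6.16 times as high as Camkv in replicate 2 and 5.74 times in replicate 1.

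Camk4 encodes CaMKIV, which phosphorylates the transcription factor CREB (ENSMUSG00000038128.7, chromosome 18, 32934931 to 33191228, plus strand). It had 36.7 TPM in replicate 2 and 33.1 TPM in replicate 1. The kinases that phosphorylate it were both higher. Camkk1, the gene of CaM kinase kinase alpha (ENSMUSG00000020785.17, chromosome 11, 73019008 to 73042073, plus strand), had 75.5 TPM in replicate 2 and 78.2 TPM in replicate 1. Camkk2, the gene of CaM kinase kinase beta, which also activates AMPK (ENSMUSG00000029471.13, chromosome 5, 122731170 to 122779409, minus strand), had 59.1 TPM in replicate 2 and 46.0 TPM in replicate 1. The order of these last 2 genes rested on the quantification. The ratio of Camkk1 to Camkk2 was 1.28 in replicate 2 and 1.70 in replicate 1 in the gene table, but 0.944 in replicate 2 and 1.25 in replicate 1 in the second transcript table.

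Targets of Camk4 and Camkk2, 6 genes, were all detected. Hdac5, a histone deacetylase exported from the nucleus on phosphorylation, was the highest by mean, at 119 ± 8.15 TPM (SD, n = 2), and Prkaa2, the AMPK alpha 2 subunit gene, the lowest, at 10.3 ± 0.81 TPM (SD, n = 2). Of 8 other calmodulin-dependent kinases, Camk1d, which encodes CaMKI delta, was the highest at 81.4 ± 3.96 TPM, and Mylk, the myosin light chain kinase gene, was the lowest at 7.63 ± 0.43 TPM (SD, n = 2). Camk2a, Camk2b, Camkv, Camk2n1 and Camk2g, with all transcripts summed, were thus above the highest of these 8. The phosphatase genes Ppm1e and Ppm1f, whose products reverse CaM kinase phosphorylation, had means of 119 ± 2.67 TPM and 25.8 ± 1.99 TPM (SD, n = 2). Dlg4, the gene of the postsynaptic scaffold PSD-95, had the highest mean of 7 CaMKII partners and substrates, at 420.3 ± 24.6 TPM, and Actn2, an actin cross-linker gene, the lowest, at 8.14 ± 0.25 TPM (SD, n = 2).

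The spread between the libraries was then measured as a log2 ratio of replicate 2 over replicate 1, from expected counts rounded to whole numbers and scaled by TMM. A gene was called 2-fold different where its log2 ratio was 1 or more in size, its mean count was 50 or more, and the 95% interval of the ratio (exact, Clopper-Pearson) excluded 1. The interval covers counting error only. The comparison is between libraries and not between conditions, and no p-value was computed. Of the 10 genes, 0 were called, against 1.1% of 14434 genes tested, of which 0.589% were higher and 0.513% lower in replicate 2. The largest ratio was that of Camkk2, with 4372 counts in replicate 2 and 4176 in replicate 1, a log2 ratio of 0.32 (95% interval 0.26 to 0.39). Camk2d followed, with 1923 counts in replicate 2 and 1874 in replicate 1, a log2 ratio of 0.30 (0.20 to 0.39).

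The other 8 genes lay closer to equality. Camk2a had 100627 counts in replicate 2 and 111020 in replicate 1, a log2 ratio of 0.12 (0.10 to 0.13), and Camk2b had 32855 counts in replicate 2 and 36421 in replicate 1, a log2 ratio of 0.11 (0.089 to 0.13). These 2 intervals are narrow because the counts are high. Camk4, Camk2g, Camk2n1 and Camkv had log2 ratios of 0.14, 0.13, 0.055 and 0.037, and all 4 intervals excluded 1. Camkk1 at -0.054 (-0.11 to 0.0027) and Camk2n2 at -0.092 (-0.22 to 0.035) were the only members with a negative ratio, and their intervals held 1.

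With TMM scaling, 8 of 10 intervals excluded 1, all 8 with replicate 2 higher. Among all genes tested, the interval excluded 1 in 44.3%, with replicate 2 higher in 18.7% and lower in 25.6%. Such intervals narrow with depth, and all 10 genes had a mean count above 1000. Their median size of log2 ratio was 0.11, against 0.14 over all 14434 genes and 0.097 over the 5640 genes with a mean count of at least 1000. The direction rested on the scaling. Under scaling to the spike-ins, the median of all genes shifted by -0.24 on the log2 scale, 8 of the 10 genes were lower in replicate 2, and Camkk2 at 0.082 and Camk2d at 0.053 were the only members above 0. The median of the 10 genes relative to that of all genes was 0.11 against -0.020 with TMM and -0.13 against -0.26 with spike-ins.

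**Figure D2:**
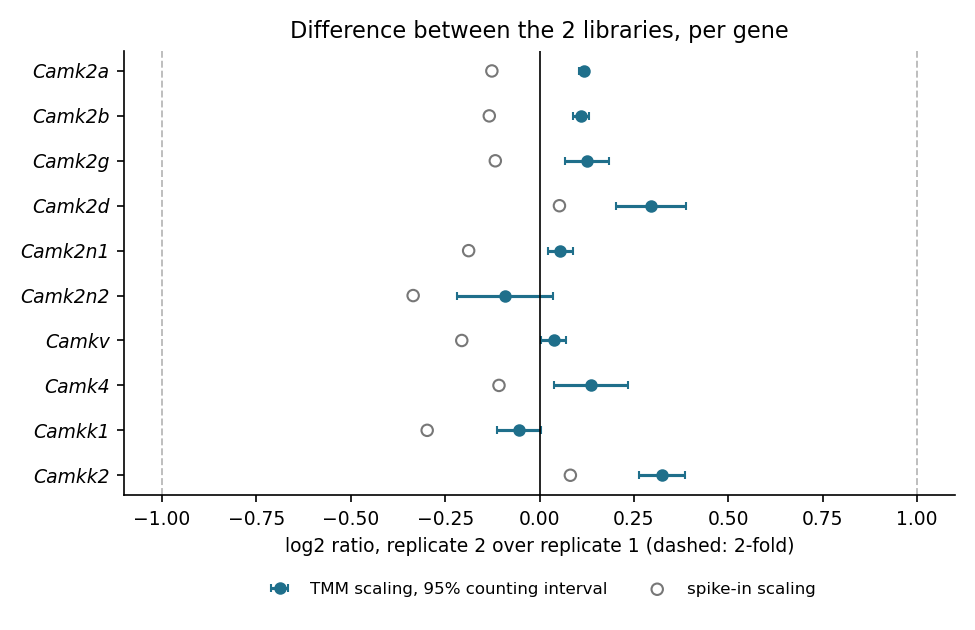
Log2 ratio of replicate 2 over replicate 1 for each gene, with TMM scaling and its 95% counting interval (filled points and bars) and with spike-in scaling (open points), and dashed lines at a 2-fold difference. With TMM scaling the ratios run from -0.092 for Camk2n2 to 0.32 for Camkk2, and every point lies well inside the dashed lines.

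The pathway genes around them also stayed within 2-fold. Of 28 genes in 6 lists, 16 were higher and 12 lower in replicate 2 with TMM scaling, against 1 higher and 27 lower with spike-in scaling. With TMM scaling 0 were called, against 1.1% of all 14434 genes tested, and the median log2 ratio was 0.021. For so few genes, a count of 0 lies near that share. All 7 CaMKII partners and substrates had a positive log2 ratio with TMM scaling, from 0.015 for the syntaxin gene Stx1a to 0.19 for Actn2. The counting intervals of Stx1a (-0.087 to 0.12) and Actn2 (-0.005 to 0.39) held 1, and those of the others excluded it. But with spike-in scaling all 7 were negative. Of 8 other calmodulin-dependent kinases, 6 were negative with TMM and 7 with spike-in scaling. The most negative of the 28 with TMM was that of Hdac4, a histone deacetylase gene, at -0.63. The choroid plexus and immediate early genes that set the libraries furthest apart differed more, and their part in the ratios of the 10 genes was not tested.

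The gene levels hide different numbers of transcripts, so the 92 transcripts were examined next. Of these, 44 had at least 1 TPM in both libraries and 18 were listed at 0 TPM in both. Camk2d has 28 annotated transcripts, Camk2g 17, Camk2b 15, Camkk2 11, Camk2a 7, Camkv 5, Camk4 4 and Camkk1 3. Among 11777 detected protein-coding genes with at least 2 transcripts, the leading transcript held a median of 61.2% of the gene's TPM in replicate 2 and 61.3% in replicate 1. Camk4, Camkk1, Camk2b, Camkv and Camkk2 had a leading transcript above that median in both libraries. Camk2a was also above it in both libraries but close to it, at 62.0% in replicate 2 and 63.7% in replicate 1. Camk2g and Camk2d were far below.

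**Figure D3:**
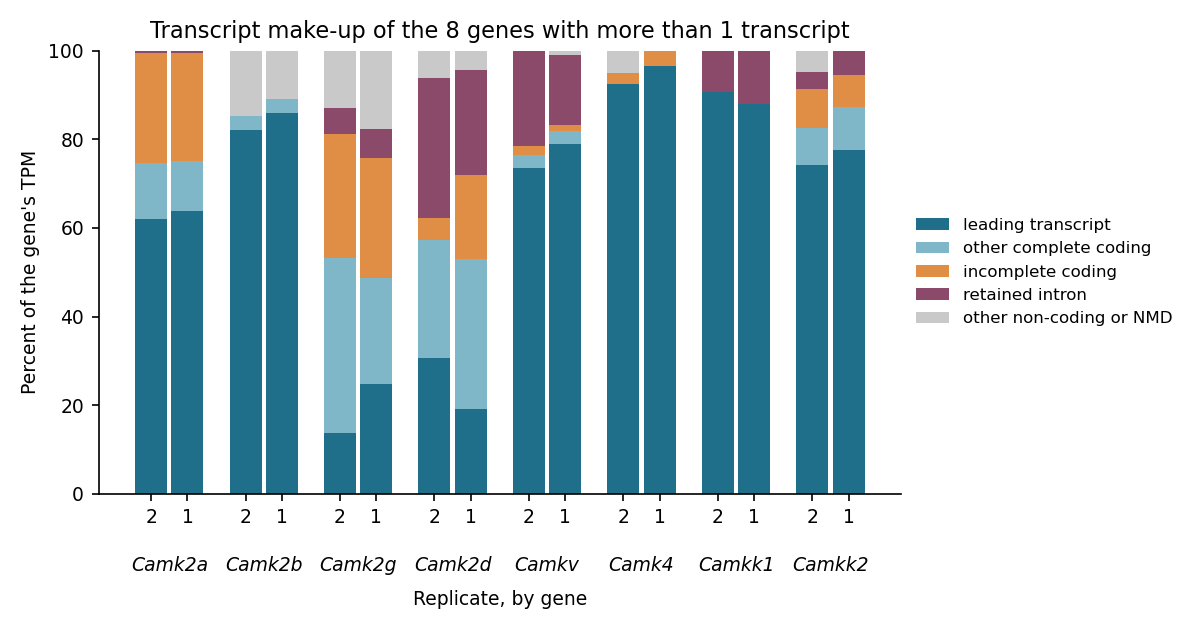
Percent of each gene's TPM by transcript class in the 8 genes with more than 1 transcript, with the bar of replicate 2 left of that of replicate 1. The leading transcript is the 1 with the highest mean share. Its share is highest for Camk4, at 92.5% in replicate 2 and 96.5% in replicate 1. In replicate 2 it is lowest for Camk2g, at 13.7%. In replicate 1 it is lowest for Camk2d, at 19.0%, where Camk2g has 24.8%.

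Camk2a was made mostly of Camk2a-203, the full-length form of 18 exons and 4970 bases, with 1012 TPM in replicate 2 and 947 TPM in replicate 1. It held 62.0% of the gene's TPM in replicate 2 and 63.7% in replicate 1, but 86.2% of its expected counts in replicate 2 and 87.6% in replicate 1. The gap came from Camk2a-207, a coding fragment of 530 bases with both ends incomplete in the annotation. That fragment held 25.0% of the TPM in replicate 2 and 24.4% in replicate 1, from 3.07% of the counts in replicate 2 and 2.96% in replicate 1, since TPM divides by length. The second transcript table gave it 20.3% of the TPM in replicate 2, against 17.3% in replicate 1. The level of Camk2a in TPM therefore depends in part on how that fragment is counted.

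**Figure D4:**
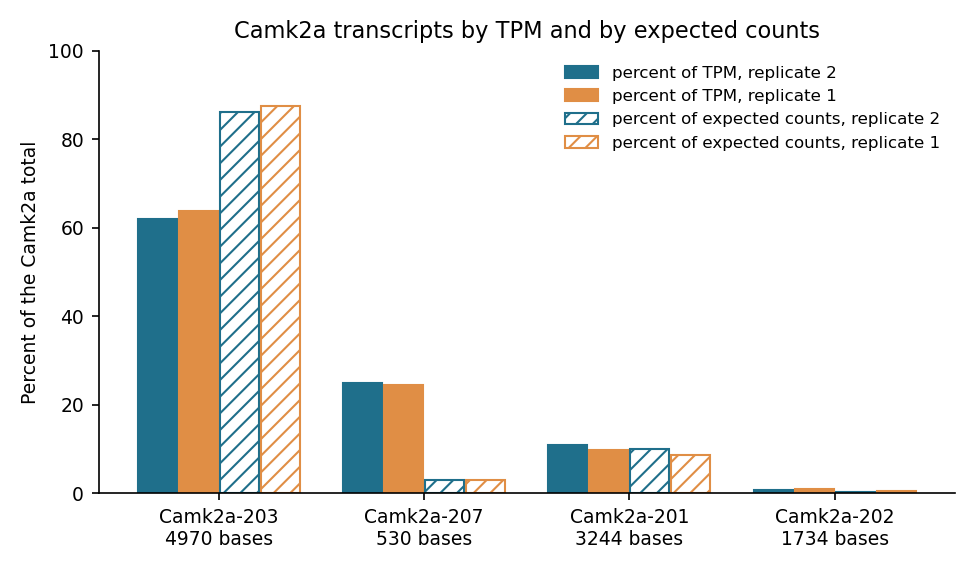
Percent of the Camk2a total held by its 4 highest transcripts, by TPM (filled bars) and by expected counts (hatched bars), with replicate 2 left of replicate 1 in each pair. In replicate 2, Camk2a-203 holds 62.0% of TPM but 86.2% of counts, and the 530-base Camk2a-207 holds 25.0% of TPM but 3.07% of counts, and replicate 1 is alike.

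Camk2a-201 carries an additional coding exon of 33 bases (60969011 to 60969043), known from the alphaB form of the subunit, where it adds a nuclear localisation signal. It had 179 TPM in replicate 2 and 144 TPM in replicate 1. The exon was included in 15.7% of the TPM of transcripts that span its place in replicate 2, against 13.7% in replicate 1. In the second transcript table these values were 14.2% in replicate 2, against 12.9% in replicate 1. In the annotation Camk2a-201 also has a shorter 3′ end than Camk2a-203, so the exon and that end cannot be told apart in these values. Camk2a-202 and Camk2a-204 begin inside the gene, past exons of the kinase domain; a product of that kind, alphaKAP, is an anchoring protein of skeletal muscle. Camk2a-202 had 12.6 TPM in replicate 2 and 13.0 TPM in replicate 1 in the first transcript table, but 97.2 TPM in replicate 2 and 86.4 TPM in replicate 1 in the other, so its level was not settled by these tables.

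Camk2b was carried by 1 form. Camk2b-209, of 21 exons, had 432 TPM in replicate 2 and 409.5 TPM in replicate 1, which was 82.1% of the gene in replicate 2, against 86.0% in replicate 1. Camk2b-210 has the same cassette exons and took no more than 0.0149% of the gene's counts in either library, with a posterior SD of 1.68% in replicate 2 and 1.37% in replicate 1. Its level in the second transcript table was 3.02 TPM in replicate 2 and 36.9 TPM in replicate 1, so reads of the 2 forms were divided with low certainty. In the variable linker between the kinase and the hub of the subunit, 3 exons were nearly always kept. The 75-base exon was included in 96.6% of TPM in replicate 2 and 96.8% in replicate 1. The 72-base exon was in 99.8% in replicate 2 and 99.9% in replicate 1, and the 45-base exon in 96.7% in replicate 2 and 97.0% in replicate 1. The 114-base exon and both 129-base exons of the same linker were at 0.65% or less in both libraries, and at 2.07% or less in the second transcript table. A 33-base exon of Camk2b (5989936 to 5989968) was listed at 0 in replicate 2 and at 0.078% in replicate 1, but at 3.10% in replicate 2 and 3.27% in replicate 1 in the second transcript table.

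The linker exons of Camk2g and Camk2d were used in mixed fashion. Both genes have a 33-base exon that corresponds to that of the alphaB form and encodes a basic stretch with nuclear localisation activity. The exons are shown because they are alike in sequence and unlike in use. They share 26 of 33 bases, 78.8%, and capitals mark the bases identical in both.
Camk2g exon, chr14:20747819-20747851, minus strand: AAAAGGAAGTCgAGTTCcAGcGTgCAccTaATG
Camk2d exon, chr3:126802937-126802969, plus strand: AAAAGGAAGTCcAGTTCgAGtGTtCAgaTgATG
The Camk2g exon was included in 47.5% of TPM in replicate 2 and 40.2% in replicate 1. Inclusion was 60.9% in replicate 2, against 55.5% in replicate 1, in the second transcript table. Over complete protein-coding transcripts it was 43.9% in replicate 2, against 29.3% in replicate 1. The Camk2d exon was listed at 0 in both libraries, where the transcripts that skip it had 1724 counts in replicate 2 and 1644 in replicate 1. The incomplete Camk2d-201 begins inside that exon and was counted neither as including nor as skipping it. That fragment had 1.72 TPM in replicate 2 and 1.74 TPM in replicate 1, so the 0 covers only transcripts with the whole exon. By the same rule, the Camk2d exon was at 1.31% in replicate 2, against 2.71% in replicate 1, in the second transcript table. Inclusion of the Camk2g exon was thus higher than that of its Camk2d counterpart in both libraries and both tables.

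A second pair of alike exons lies further along the linker. The 45-base exon of Camk2b and the 42-base exon of Camk2d share 33 bases, 73.3% of the longer, and capitals again mark identical bases.
Camk2b exon, chr11:5981070-5981114, minus strand: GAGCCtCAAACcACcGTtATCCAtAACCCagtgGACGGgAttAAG
Camk2d exon, chr3:126808208-126808249, plus strand: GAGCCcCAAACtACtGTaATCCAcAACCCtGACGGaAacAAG
The Camk2b exon was nearly constant, as given above. The Camk2d exon was included in 49.1% of TPM in replicate 2 and 48.7% in replicate 1. In the second transcript table inclusion was 58.6% in replicate 2, against 46.4% in replicate 1. Over complete protein-coding transcripts it was 74.8% in replicate 2, against 80.1% in replicate 1. It was below the Camk2b exon in each of these settings. The 60-base exon of Camk2d was included in 67.1% of TPM in replicate 2 and 60.2% in replicate 1. Its inclusion in the second transcript table was 60.6% in replicate 2, against 53.9% in replicate 1. Over complete protein-coding transcripts the direction turned, with 71.7% in replicate 2, against 74.7% in replicate 1. The incomplete Camk2d-220 begins inside this exon and was left out, with 0 TPM in replicate 2 and 3.71 TPM in replicate 1 in the first table.

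Camk2d also holds a pair of 73-base exons in its kinase domain that are used in place of each other in the annotated transcripts. They share 50 bases, 68.5%, marked in capitals.
Camk2d upstream exon, chr3:126770785-126770857, plus strand: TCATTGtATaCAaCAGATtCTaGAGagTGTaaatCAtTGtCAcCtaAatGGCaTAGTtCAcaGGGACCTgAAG
Camk2d downstream exon, chr3:126771774-126771846, plus strand: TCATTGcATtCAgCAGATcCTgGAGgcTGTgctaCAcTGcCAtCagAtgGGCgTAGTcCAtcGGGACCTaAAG
The upstream exon was taken by 94.2% of TPM in replicate 2 and 88.6% in replicate 1. Its share in the second transcript table was 91.4% in replicate 2, against 90.6% in replicate 1. The downstream exon took the rest, at 5.81% in replicate 2 and 11.4% in replicate 1, from 67 counts in replicate 2 and 170 in replicate 1. These counts were poorly fixed. Camk2d-203, which carries this exon, had 41 counts with a posterior SD of 60.9 in replicate 2. In replicate 1 it had 170 counts with a posterior SD of 91.8. The downstream share in the second transcript table was 8.62% in replicate 2, against 9.39% in replicate 1.

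**Figure D5:**
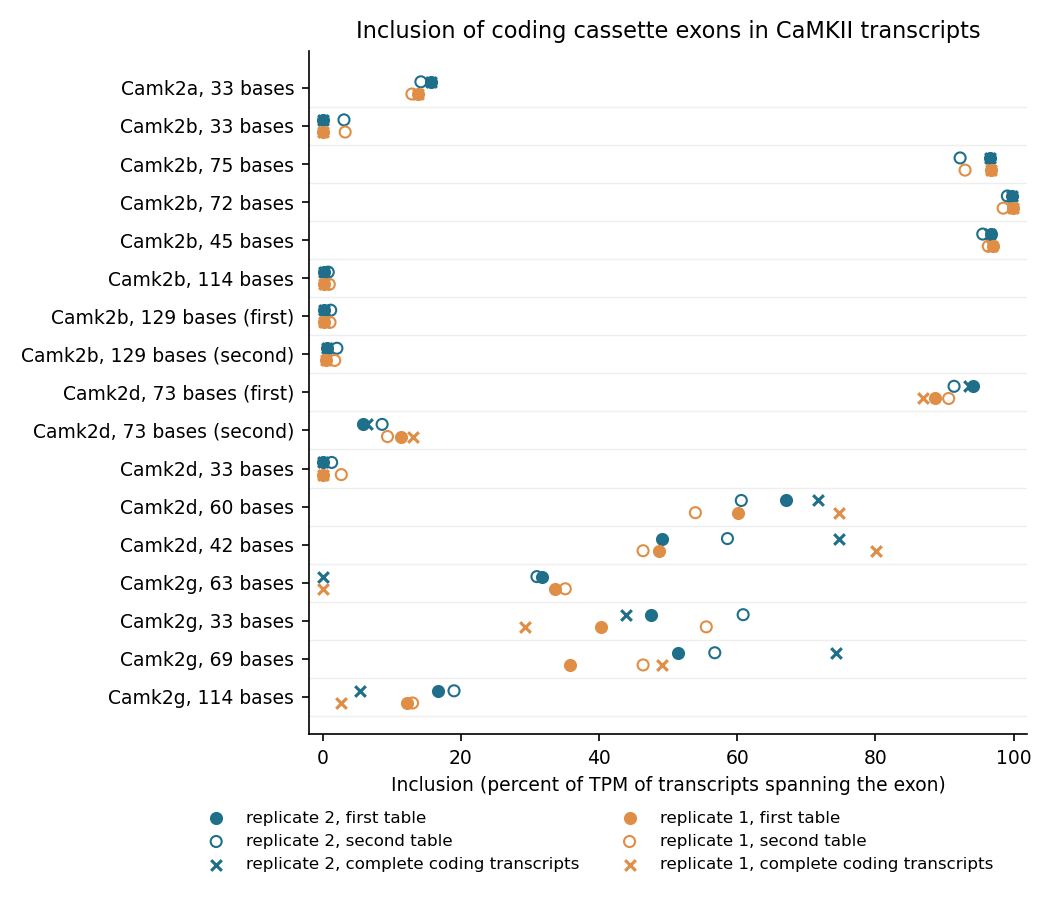
Inclusion of 17 coding cassette exons of the 4 CaMKII genes, as percent of the TPM of transcripts that span each exon, with replicate 2 above replicate 1 in each row. Filled points are the first transcript table, open points the second, and crosses complete protein-coding transcripts of the first. The Camk2b exons sit near 0 or near 100, and the linker exons of Camk2d and Camk2g spread between 0% and 80.1%.

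The order of the main forms of Camk2g differed between the libraries in the first transcript table but not in the second. Its 3 main complete forms are Camk2g-201 with both the 33-base and the 69-base exon, Camk2g-202 with the 69-base exon only, and Camk2g-203 with neither. The 69-base exon is shown because it separates these forms.
Camk2g exon, chr14:20745792-20745860, minus strand: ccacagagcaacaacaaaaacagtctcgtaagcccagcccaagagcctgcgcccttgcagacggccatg
Camk2g-203 had 16.7 TPM in replicate 2 and 29.6 TPM in replicate 1. Camk2g-201 had 25.0 TPM in replicate 2 and 15.5 TPM in replicate 1, and Camk2g-202 had 19.7 TPM in replicate 2 and 11.6 TPM in replicate 1. In that table the form with both exons led in replicate 2 and the skipping form led in replicate 1. In the second table the order was Camk2g-201, Camk2g-203 and Camk2g-202 in both libraries, with 29.6, 11.6 and 9.66 TPM in replicate 2 and 25.2, 18.6 and 3.8 TPM in replicate 1.

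In shares of the Camk2g counts, Camk2g-203 held 21.8 ± 3.91% in replicate 2 and 42.4 ± 4.68% in replicate 1, where the error is the deposited posterior SD of read assignment. That error does not cover the spread between animals. The difference of replicate 2 minus replicate 1 was -20.5 points in counts, -11.1 points in TPM shares and -5.89 points in the second transcript table. For scale, the leading transcript's share of TPM was compared between the libraries over 5213 genes with a mean count of at least 1000. It moved by a median of 3.52 points in the first table and 3.59 points in the second. These medians stand beside the TPM shares and not beside the count shares. The 69-base exon was included in 51.5% of TPM in replicate 2 and 35.9% in replicate 1. Inclusion was 56.8% in replicate 2, against 46.4% in replicate 1, in the second transcript table. Restricted to complete protein-coding transcripts, it was 74.3% in replicate 2, against 49.1% in replicate 1. Replicate 2 was higher in all 3 settings, and there was 1 library on each side and so no test.

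The 63-base exon of Camk2g was found only in incomplete transcripts. It was at 31.7% of TPM in replicate 2 and 33.6% in replicate 1, but at 0 over complete protein-coding transcripts. The fragments Camk2g-212 and Camk2g-204, of 673 and 722 bases, carried most of that TPM, from 197 counts of Camk2g-212 and 140.5 of Camk2g-204 in replicate 2. Camk2g-204 also carried most of the TPM of the 114-base exon, included at 16.6% in replicate 2 and 12.2% in replicate 1.

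Camk2d had few counts for its 28 transcripts, and single forms were poorly fixed. Camk2d-206, the leading form, had 10.5 TPM in replicate 2 and 5.45 TPM in replicate 1, which was 30.6% of the gene in replicate 2, against 19.0% in replicate 1. Its count share was 39.2 ± 5.08% in replicate 2 and 25.0 ± 6.55% in replicate 1, with posterior SDs as errors. Retained-intron transcripts of Camk2d held 31.7% of its TPM in replicate 2 and 23.5% in replicate 1. In the second transcript table they held 25.9% in replicate 2, against 15.2% in replicate 1. A fragment of 618 bases, Camk2d-217, made up 17.4% of the gene's TPM in replicate 2 and 5.10% in replicate 1, from 54 counts in replicate 2 and 16 in replicate 1. Camk2d also overlaps 7 same-strand genes of unverified status, each with at most 49 counts.

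Camkv and Camkk1 each have a form with 1 retained intron. Camkv-202 keeps an intron of 214 bases between exons 4 and 5 of the 11 exons of the leading form Camkv-201, inside the span of the coding sequence. The intron is shown because the share of RNA that keeps it was above the median of genes with such a form in the first transcript table, and capitals mark its first and last 2 bases, the splice sites.
Camkv intron, chr9:107945865-107946078, plus strand: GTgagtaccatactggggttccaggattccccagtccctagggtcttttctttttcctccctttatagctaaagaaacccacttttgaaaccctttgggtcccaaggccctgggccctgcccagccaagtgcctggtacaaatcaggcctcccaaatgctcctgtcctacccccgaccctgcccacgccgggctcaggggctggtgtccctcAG
Camkv-202 had 57.1 TPM in replicate 2 and 40.7 TPM in replicate 1, and it held 21.5% of the gene in replicate 2, against 15.7% in replicate 1. Its share in the second transcript table was 19.6% in replicate 2, against 13.9% in replicate 1. In counts the shares were 21.9 ± 1.12% in replicate 2 and 16.0 ± 0.85% in replicate 1, a gap of 5.88 points, with posterior SDs of read assignment as errors. In TPM shares the gap was 5.84 points, and 5.66 points in the second transcript table. The retained-intron share of TPM in 3609 genes with a mean count of at least 1000 moved by a median of 1.86 points between the libraries. In the second table that median was 1.89 points. Camkv-201, the spliced form, had 195 TPM in replicate 2 and 205 TPM in replicate 1, where replicate 2 was the lower.

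Camkk1-203 keeps an intron of 269 bases (chromosome 11, 73037269 to 73037537) between exons 12 and 13 of the 16 exons of Camkk1-201. It held 9.35% of the gene's TPM in replicate 2 and 11.96% in replicate 1. Its share was 16.1% in replicate 2, against 19.3% in replicate 1, in the second transcript table. Replicate 2 was lower in both tables, opposite to Camkv. In the 7554 detected genes with an annotated retained-intron transcript, such transcripts held a median of 13.0% of the gene's TPM in replicate 2 and 12.5% in replicate 1 in the first table. Camkv lay above that median in both libraries and Camkk1 below it. Summed over all 11777 detected genes with at least 2 transcripts, the share was 10.0% in replicate 2 and 9.76% in replicate 1. In the second table that sum was 10.6% in replicate 2 and 10.4% in replicate 1, and both Camkv and Camkk1 were above it.

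Camk4 was mostly 1 form, and the make-up of Camkk2 differed between the tables. Camk4-201 held 92.5% of Camk4 TPM in replicate 2 and 96.5% in replicate 1. Camkk2-201, of 17 exons, held 74.1% of Camkk2 TPM in replicate 2 and 77.5% in replicate 1, and had 43.8 TPM in replicate 2 and 35.6 TPM in replicate 1. The ratio of replicate 2 over replicate 1 for this form, like that of the gene, was above 1. Its share in the second transcript table was 52.1% in replicate 2, against 57.1% in replicate 1. There Camkk2-207, an incomplete transcript of 567 bases, had 15.9 TPM in replicate 2 and 7.32 TPM in replicate 1, while the first gave it 2.78 TPM in replicate 2 and listed it at 0 in replicate 1. Camkk1 as a gene had 66.0 TPM in replicate 2 and 65.9 TPM in replicate 1 in that table, and Camkk2 had 70.0 TPM in replicate 2 and 52.5 TPM in replicate 1.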

How the data were processed

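The genes, lists, thresholds and alternatives were chosen with earlier results of these data known. Per the labels, RNA was made into directional libraries with reduced ribosomal RNA. The notes deposited with the tables name mm10 (GRCm38) and GENCODE M21. By their headers, the gene table and first transcript table are laid out as RSEM writes them and the other transcript table as kallisto does. Aligner, tool versions and strand setting: not given in the sources used here. The reference is C57BL/6J, 1 of the 2 parent strains, and its effect on reads of the other was not tested.

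Expected counts were deposited without normalisation and rounded here to whole numbers. Estimated counts in the second transcript table were deposited for each transcript, and the deposited notes tie them to 1 FASTQ file a library. TPM was normalised for length by the authors. FPKM was deposited by the authors and used for an alternative only. The authors' posterior SD is a signal on the scale of counts and covers how reads were assigned.

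Levels are mean TPM ± SD (n = 2). Gene gaps are stated where they exceeded the SD of both genes with the same sign in both libraries. Ratios used TMM in edgeR 4.0.16 (R 4.3.3) with a prior count of 2 and effective sizes of 28448001 in replicate 2 and 34038040 in replicate 1. The ratio and its interval were tested on simulated Poisson counts with known folds. Those counts hold counting error only, so that test says nothing of read assignment or of the spread between animals. Shares, exon inclusion and alignments (Biopython 1.88) were computed in Python 3.11. Exon inclusion is the TPM of transcripts that include an exon over that of all that span its place. Transcripts that start or end inside an exon were counted on neither side. Intervals cover counting error only, since no molecular identifiers are named. Sequences are those of GENCODE M21 transcripts. Protein sequences were not used here, nor was DNA of chromosome 18. All 10 genes are described, with transcripts of a mean TPM of at least 1 or a share of at least 5% in either table, and from each pathway list the highest and lowest by mean TPM. A gene of these lists is not reported here. Stx1a and Hdac4 were named after their values were seen. Alternatives were the second transcript table, FPKM, DESeq2 1.42.0 size factors, library totals, spike-in scaling, other thresholds and leaving out each library.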

Additional observations from a re-analysis of the deposited data

How the results depend on the processing

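All 10 genes stayed detected, and 0 were called different, under each alternative run for those counts. Among these were a TPM of at least 10, a 1.5-fold threshold, no minimum count and spike-in scaling. Dropping the minimum count could not change the call, since all 10 genes were above it. Over all 14434 genes tested, 159 were called with TMM and 214 with spike-in scaling. The mean ratio of Camk2a to Camk2b, 3.11 in the gene table, was 2.96 in the second transcript table and 2.67 with complete protein-coding transcripts only, and it ran from 3.10 to 3.12 when either library was left out. The Camk2a percent of subunit TPM, 70.5, was 69.1 in the second transcript table and 69.4 with complete transcripts only, and it ran from 70.4 to 70.5 without either library. The ratio of inhibitors to subunits, 0.0998, was 0.105 in the second transcript table and 0.131 with complete transcripts only, and it ran from 0.0961 to 0.104 without either library. FPKM differs from TPM only by a factor common to all genes of a library, so it could not move these 3 values beyond rounding. Leaving out a library gives only the value of the other library, so it adds no check of them. The cause of the shifts in the other settings was not tested, except that the complete set leaves out the short Camk2a-207 by construction. Spike-in scaling moved the log2 ratio of all 10 genes out of its counting interval, while the other scalings and the prior count moved none. The interval lay above 1 in 8 genes and below 1 in 0 with TMM, in 8 and 1 (Camkk1) with median-of-ratios size factors, in 7 and 1 from the second transcript table, and in 1 (Camkk2) and 8 with spike-ins. The leading transcript's share moved by more than its SD in the second transcript table for 4 of the 8 genes with more than 1 transcript, Camk2b, Camk4, Camkk1 and Camkk2. For Camk2g and Camk2d that SD was wide, at 7.83 and 8.17 points, so staying within it shows little. In the second table Camk2g-201 led Camk2g in both libraries, whereas Camk2g-203 had the highest mean share in the first. The n of 2 limits every SD, and the few counts of Camk2d limit its transcript shares. No paired analysis was possible because the libraries form 1 group.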
